A study of Mus musculus with 2 samples.

Results

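The 40 splicing factor genes described here are the protein-coding mouse genes whose symbols name an SR protein (Srsf and a number), a heterogeneous nuclear ribonucleoprotein (Hnrnp) or a subunit of splicing factor 3a or 3b (Sf3a or Sf3b and a number). They were taken by symbol alone from 43346 Ensembl genes, of which 21474 were protein-coding genes with a symbol. The 40 comprise 11 SR protein genes, 20 hnRNP genes, 3 SF3a genes and 6 SF3b genes, with 237 transcripts in the deposited tables. A further 2 genes whose symbols match are processed pseudogenes and were left out.

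Both libraries were made from poly(A) mRNA of spleen from an adult C57BL/6J male, 10 weeks old, extracted with the RNeasy Lipid Tissue Mini Kit, and both belong to biological replicate 1. The question the pair allows is how far the levels and isoforms of the splicing factors differ between technical replicate 2, a library performed in 2015 that lies outside the study's 2014 publication, and technical replicate 1. With 1 library a side there is no replicate spread, no p-value is given, and every interval covers counting error only. Reads copied during amplification are not independent molecules, so these intervals are too narrow by an unknown amount.

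Technical replicate 2 held 3806381 expected counts and technical replicate 1 held 27528824, which was 7.23 times as deep. The 4 globin genes Hba-a1, Hba-a2, Hbb-bs and Hbb-bt, markers of erythroid cells, summed to 441904 TPM in technical replicate 2 and 42551 TPM in technical replicate 1, or 44.2% and 4.26% of all TPM, with single genes between 11285 and 217252 TPM in technical replicate 2 and between 3077 and 21651 TPM in technical replicate 1. TPM is a length-corrected level that has the same sum in each library, so a larger globin share lowers every other gene on that scale. The 5 markers each of B cells, T cells and red pulp macrophages and the 4 globin genes were all at 1 TPM or more in both libraries, and none was at 0. In bulk tissue, fewer cells of a type and less RNA per cell cannot be told apart.

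SR proteins carry stretches rich in arginine and serine, bind exonic sequences and mostly help the spliceosome to include exons. The hnRNP proteins coat new transcripts, and many of them silence exons or set the stability and transport of the mRNA. SF3a and SF3b are the multi-subunit parts of the U2 small nuclear ribonucleoprotein that hold it at the intron's branch point. Many SR and hnRNP genes limit their own protein by making transcripts that keep an intron or include an exon with an early stop codon, and such transcripts stay in the nucleus or are destroyed by nonsense-mediated decay.

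The results below sort transcripts by annotated class, and 4 segments that define retained-intron or decay transcripts are shown. Whether these transcripts limit the protein, stay in the nucleus or are destroyed was not measured. The first 3 are introns kept inside exons of 3 of the 4 retained-intron transcripts that led their genes in technical replicate 2; the other is Srsf3-205. Capitals mark the first 2 and last 2 bases, which are GT and AG in each. All are given 5′ to 3′ on the gene's strand, in GRCm38 coordinates, from the GENCODE M21 transcript models. Hnrnpk-217 keeps chr13:58393775-58393852 on the minus strand, Hnrnpl-210 keeps chr7:28821274-28821391 on the plus strand, and Hnrnph3-205 keeps chr10:63015895-63016079 on the minus strand.
Hnrnpk-217 intron: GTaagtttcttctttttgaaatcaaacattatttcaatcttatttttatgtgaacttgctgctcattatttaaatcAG
Hnrnpl-210 intron: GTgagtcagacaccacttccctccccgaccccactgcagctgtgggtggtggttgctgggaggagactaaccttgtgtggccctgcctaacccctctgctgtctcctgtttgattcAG
Hnrnph3-205 intron: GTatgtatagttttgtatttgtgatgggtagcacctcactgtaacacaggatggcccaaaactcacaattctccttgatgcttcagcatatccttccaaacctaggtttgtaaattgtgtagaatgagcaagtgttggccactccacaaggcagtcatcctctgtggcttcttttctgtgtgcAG

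These introns are short, at 78, 118 and 185 bases, and differ in composition, with 24.4%, 59.3% and 43.8% G and C. Each lies inside the coding region of a complete coding transcript that removes it. Read in that transcript's frame, the first stop codon begins at base 51 of the Hnrnpk intron, base 111 of the Hnrnpl intron and base 42 of the Hnrnph3 intron.

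The fourth segment belongs to Srsf3-201, a decay transcript. It is the part of its extra exon that is read up to the stop codon, chr17:29039454-29039487 on the plus strand, with the stop codon in capitals. The whole exon has 456 bases and is in no coding transcript of the gene. The deposited Srsf3-201 has 1919 bases and the M21 model 2594, so the exon shown is that of the later model.
Srsf3-201 exon start: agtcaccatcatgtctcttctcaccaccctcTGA

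Summed over all 40 genes, splicing factor RNA made up a smaller part of technical replicate 2. The genes held 1863 TPM in technical replicate 2 and 12097 TPM in technical replicate 1. In expected counts, the reads that the authors' quantifier assigns to each gene, they held 16716 and 449096, or 0.439% and 1.63% of the library. The TPM was lower in technical replicate 2, by any amount, for 37 of 40 genes. It was higher there for Sf3b5, Sf3a2 and Sf3b6. Genes lower by any amount were not counted over all genes, so this count is no trait of the members. With a pseudocount of 1, the median log2 TPM ratio was -3.04 for the members tested and -2.10 for all genes tested. Beyond 1.5-fold, with a pseudocount of 1, 35 of the 39 members tested were lower by TPM, against 80.8% of all genes tested. With the globin genes left out and TPM rescaled, an alternative added after seeing the data, the members summed to 3339 in technical replicate 2 and 12635 in technical replicate 1. The authors' deposited bounds on TPM, whose confidence level is not stated, overlapped between the libraries for Sf3b6 and Srsf12 and for no other member. Such overlap was not counted over all genes, so it cannot be read as a trait of the members. Nor do the bounds always contain the TPM. In technical replicate 2, Hnrnpk had 322 TPM with bounds of 275 to 305, and Srsf11 had 8.20 TPM with bounds of 8.46 to 13.7. The spans of 17 members overlap another annotated gene, among them Hnrnpk (Rmi1 on the other strand), Hnrnph3 (Rufy2) and Hnrnpu (Cox20), and Hnrnpa1 has processed pseudogenes, so their counts could hold or lose reads of a neighbour or copy.

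**Figure D1:**
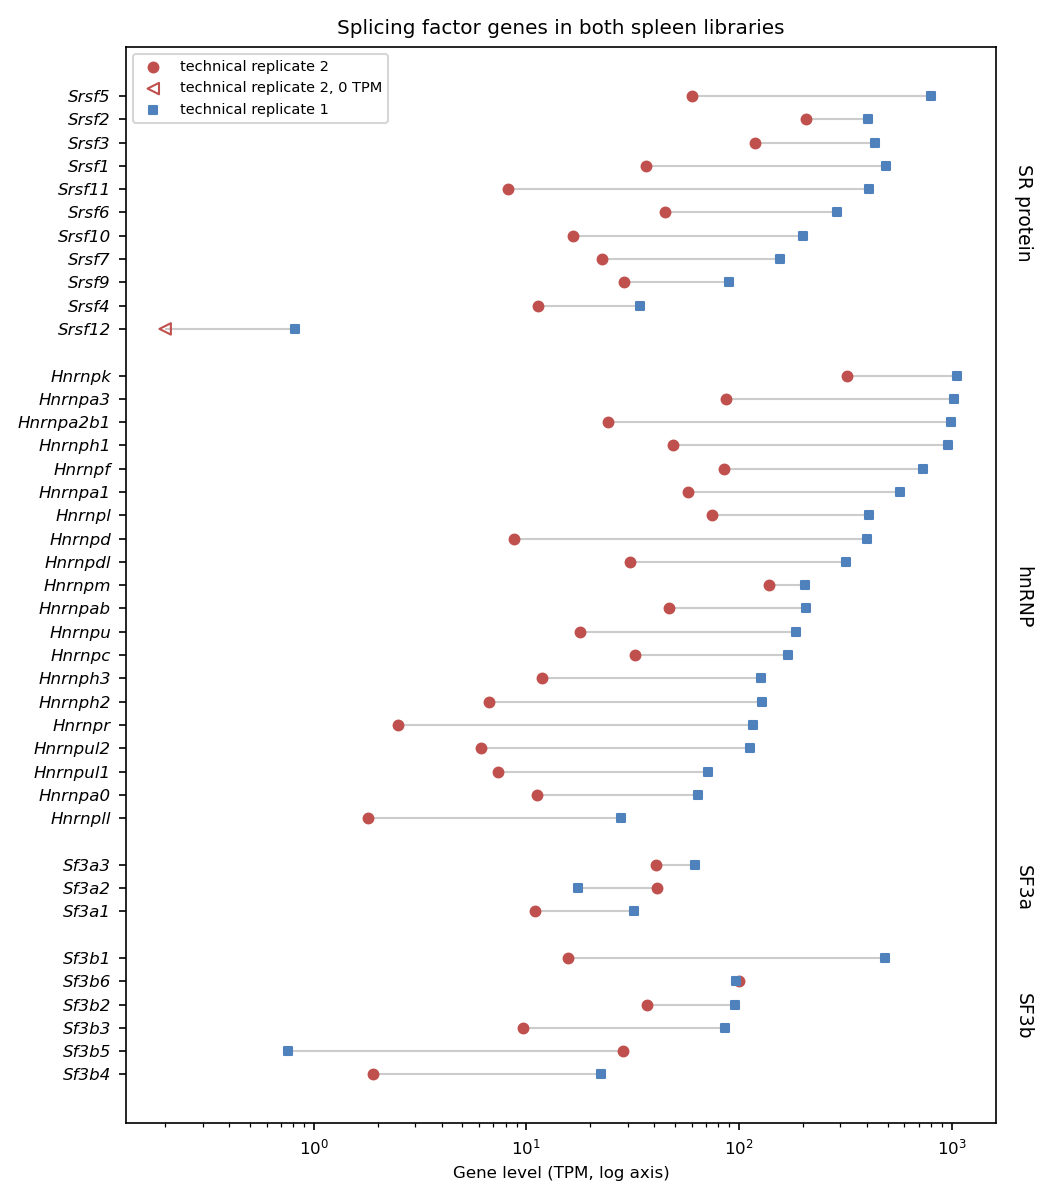
Gene level (TPM, log axis) of the 40 splicing factor genes, with circles for technical replicate 2 and squares for technical replicate 1, grouped by family and ordered by mean level. Most circles lie left of their squares by a wide margin, Sf3b6 has 99.7 TPM against 97.2 TPM, and the open triangle marks Srsf12, at 0 TPM in technical replicate 2.

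Ratios between the libraries were taken from expected counts scaled by TMM, a method that centres the bulk of the genes, and stand 1.26 log2 units above those scaled by total counts. A gene was called higher or lower where the whole exact 95% counting interval of its ratio lay beyond 1.5-fold. On this scale 8 members rose, 17 fell and 14 met neither limit among the 39 that passed a filter on low values (a mean of 1 TPM and 50 counts over both libraries). Over all 12467 genes tested, 28.0% were called higher and 32.6% lower. The median log2 ratio was -0.73 for the members and -0.27 for all genes tested.

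The families divided as follows. None of 20 hnRNP genes rose and 12 fell, with a median log2 ratio of -1.14. Of 10 SR protein genes tested, 2 rose and 4 fell, with a median of -0.27. All 3 SF3a genes rose, with a median of 1.81, and of 6 SF3b genes 3 rose and 1 fell, with a median of 0.16. Members are not replicates, so the difference between families was not tested.

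Scaling decides part of these calls. By total counts, 3 members were called higher and 31 lower, against 14.6% and 58.5% of all genes tested. By TPM with a pseudocount of 1 and no interval, 2 were higher and 35 lower, against 8.40% and 80.8% of all genes. The hnRNP genes had 0 higher and 20 lower by total counts, and 0 higher and 19 lower by TPM. The SR protein genes had 0 higher and 8 lower by total counts, and 0 higher and 10 lower by TPM. The SF3 genes had 3 higher and 3 lower by total counts, and 2 higher and 6 lower by TPM. By DESeq2 size factors, which called 29.5% of all genes higher and 30.5% lower, the members' counts were those under TMM. Called the same way by TMM, DESeq2 size factors, total counts and TPM were 17 members that fell and 2 that rose, Sf3a2 and Sf3b5.

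**Figure D2:**
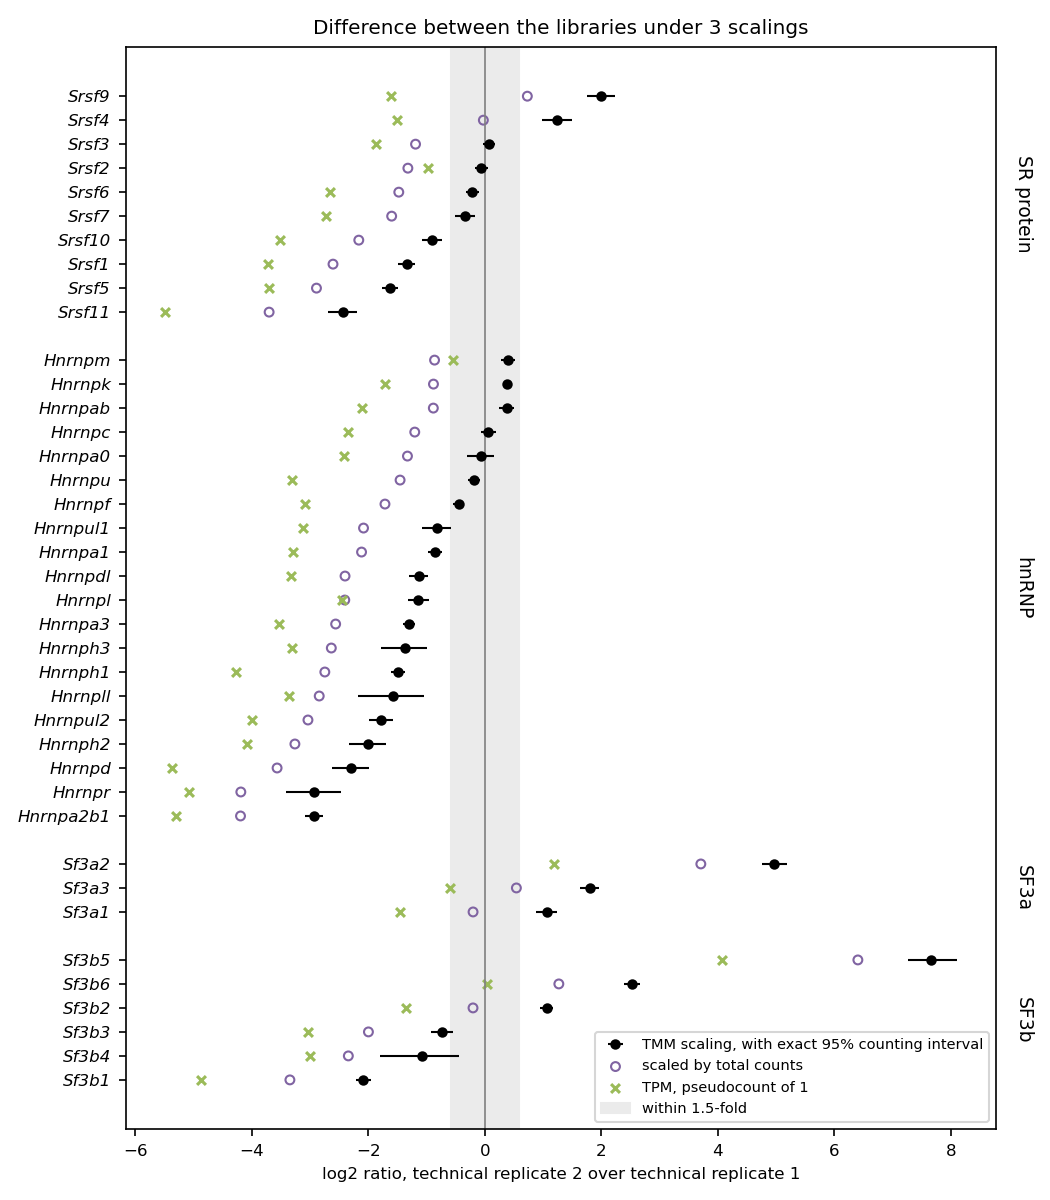
Log2 ratio of technical replicate 2 over technical replicate 1 for the 39 tested members, as TMM-scaled counts with exact 95% counting intervals (black), total-count scaling (open circles) and TPM (crosses), with the range within 1.5-fold shaded. The hnRNP genes lie at or below 0.40 under TMM, Sf3b5 lies furthest right at 7.67, and the open circles stand 1.26 to the left of the black points.

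Srsf5, an SR protein with a pair of RNA recognition motifs and the highest mean TPM of its family, had 60.4 TPM in technical replicate 2 and 797 TPM in technical replicate 1. Its log2 ratio was -1.63 (interval -1.76 to -1.50), a call held under all 4 measures.

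Srsf2, long known as the nuclear speckle protein SC35, had 207 TPM in technical replicate 2 and 406 TPM in technical replicate 1, and ranked 2 and 13 of the 40. Srsf3, the smallest of the classic SR proteins, had 119 TPM in technical replicate 2 and 437 TPM in technical replicate 1. Neither moved beyond 1.5-fold under TMM, with log2 ratios of -0.06 (-0.17 to 0.06) and 0.07 (-0.03 to 0.18), but by total counts both were lower, at -1.32 and -1.19. The span of Srsf2 overlaps Mettl23 and Mfsd11 on the other strand, and whether counting used strand is not given in the sources used here.

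Srsf11, which acts with the U2 auxiliary factor in early spliceosome assembly, fell most in its family. It had 8.20 TPM from 143 counts in technical replicate 2 and 411 TPM from 13450 counts in technical replicate 1, a log2 ratio of -2.44 (-2.69 to -2.20). Srsf1, the founding SR protein, had 36.4 TPM in technical replicate 2 and 492 TPM in technical replicate 1, a log2 ratio of -1.34 (-1.49 to -1.20). The fourth that fell was Srsf10, an SR protein that turns repressor when it loses its phosphates, with 16.6 TPM in technical replicate 2, 201 TPM in technical replicate 1 and a log2 ratio of -0.90 (-1.07 to -0.73).

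Srsf9, a relative of Srsf1, rose under TMM with a log2 ratio of 1.99 (1.75 to 2.23), from 174 counts in technical replicate 2 and 758 in technical replicate 1, but was lower by TPM, at 28.8 in technical replicate 2 and 90.1 in technical replicate 1. Srsf4, a long SR protein, rose under TMM by 1.24 (0.98 to 1.49), stood at -0.02 by total counts and was lower by TPM, at 11.4 in technical replicate 2 and 34.3 in technical replicate 1. Srsf6 and Srsf7, the latter with a zinc knuckle, met neither limit, with log2 ratios of -0.21 and -0.34.

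Srsf12, a divergent SR protein that antagonises the others, was the only member missing from a library. It had 0 counts in technical replicate 2 and 32 counts (0.82 TPM) in technical replicate 1. A count of 0 allows up to 3 counts in technical replicate 2, which after TMM scaling would stand above the level of technical replicate 1 (log2 0.70), so no difference was detectable at this depth.

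Of the 6 members with the highest mean TPM, 5 were hnRNP genes. Hnrnpk, which binds C-rich RNA through KH domains, led both libraries with 322 TPM in technical replicate 2 and 1057 TPM in technical replicate 1. Hnrnpa3, an hnRNP of the A/B group, had 87.4 TPM in technical replicate 2 and 1023 TPM in technical replicate 1. Hnrnpf, which binds runs of G, had 85.2 TPM in technical replicate 2 and 731 TPM in technical replicate 1. Hnrnpa3 fell, with a log2 ratio of -1.30 (-1.40 to -1.20), while Hnrnpk (0.38, interval 0.31 to 0.45) and Hnrnpf (-0.45, interval -0.55 to -0.35) stayed within the limit, and Hnrnpk turned to -0.88 by total counts and -1.71 by TPM.

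Hnrnpa2b1, an A/B hnRNP that also sorts RNA into exosomes and along axons, had the lowest ratio of all members, at -2.93 (-3.09 to -2.78). It had 24.1 TPM from 352 counts in technical replicate 2 and 991 TPM from 46535 counts in technical replicate 1. By TPM it ranked 22 of 40 in technical replicate 2 and 3 of 40 in technical replicate 1.

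Hnrnpr, a neuronal mRNA transport factor related to Syncrip, was next at -2.92 (-3.42 to -2.47), with 2.50 TPM from 39 counts in technical replicate 2 and 117 TPM from 5136 counts in technical replicate 1. Hnrnpd, which binds AU-rich elements and promotes mRNA turnover, had a log2 ratio of -2.30 (-2.63 to -1.99), with 8.73 TPM in technical replicate 2 and 402 TPM in technical replicate 1. All of these kept their call under all 4 measures.

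Hnrnph1, a G-run binding relative of Hnrnpf, had 48.8 TPM in technical replicate 2 and 964 TPM in technical replicate 1, a log2 ratio of -1.48 (-1.60 to -1.36). Its close relative Hnrnph2 on the X chromosome fell by 2.00 on the log2 scale, and the shorter Hnrnph3 fell by 1.37. Hnrnpl, which binds CA repeats, fell by 1.14 (interval -1.32 to -0.96) and its paralogue Hnrnpll, which represses variable exons of the leukocyte antigen CD45 in T cells, fell by 1.58 (interval -2.17 to -1.04) on only 28 counts in technical replicate 2. The other hnRNP genes that fell were Hnrnpa1, Hnrnpdl and Hnrnpul2, with log2 ratios of -0.85, -1.14 and -1.77.

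In the middle of the family, Hnrnpm (a binder of GU-rich RNA), Hnrnpab and Hnrnpc (a binder of uridine tracts) had log2 ratios of 0.40, 0.38 and 0.06 under TMM and -0.86, -0.88 and -1.20 by total counts. Hnrnpa0, Hnrnpu and Hnrnpul1 had -0.06, -0.19 and -0.82 under TMM. No hnRNP gene reached the upper limit under any of the 4 measures.

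Among the SF3 genes, 6 of 9 rose under TMM. Sf3b5, the smallest SF3b subunit, had 28.5 TPM from 621 counts in technical replicate 2 and 0.76 TPM from 53 counts in technical replicate 1, a log2 ratio of 7.67 (7.26 to 8.10) and the highest of all members. Sf3a2, a zinc finger subunit of SF3a, had 41.1 TPM from 501 counts in technical replicate 2 and 17.5 TPM from 277 counts in technical replicate 1, a log2 ratio of 4.97 (4.76 to 5.19). Sf3b5 spans chr10:13005343-13009183 in GRCm38 and has 1 transcript in the tables, while the span of Sf3a2 overlaps Plekhj1 on the other strand.

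Sf3b6, the subunit that touches the branch point adenosine, had 99.7 TPM in technical replicate 2 and 97.2 TPM in technical replicate 1. Its log2 ratio was 2.53 (2.40 to 2.67) under TMM, 1.27 by total counts and 0.04 by TPM. Sf3a3 rose by 1.81 (1.64 to 1.97) under TMM and was lower by TPM, at 40.6 in technical replicate 2 and 62.2 in technical replicate 1. Sf3a1 and Sf3b2 each rose by 1.06 under TMM, but both stood at -0.20 by total counts and were lower by TPM.

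Sf3b1, the large subunit that closes around the branch point and is often mutated in blood cancers, was the one SF3 gene that fell under TMM. It had 15.7 TPM from 544 counts in technical replicate 2 and 487 TPM from 39956 counts in technical replicate 1, a log2 ratio of -2.08 (-2.21 to -1.96). Its partners Sf3b3 and Sf3b4 had -0.73 (-0.93 to -0.55) and -1.08 (-1.80 to -0.44), neither past the limit under TMM, but by total counts both were called lower, at -1.996 and -2.34. Over the 6 genes named Sf3b the log2 ratios under TMM ran from -2.08 to 7.67.

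The rank order of the members was loosely kept between the libraries, with a Spearman rho of TPM of 0.54 over 39 members, against 0.51 over all genes tested. This is a description across genes of the same 2 libraries. The members' log2 ratio also moved with the G and C content of their coding transcripts. In the 13 members of lowest content (39.99% to 44.1%) 0 rose and 8 fell. In the middle 13 (44.1% to 49.8%) 3 rose and 8 fell, and in the 13 of highest content (50% to 56.8%) 5 rose and 1 fell. The median log2 ratios, in that order, were -1.14, -1.30 and 0.38, so only the group of highest content stood apart. Calls were not counted over all genes in these ranges. The rank correlation of the log2 ratio with this content was 0.37 over the members and 0.53 over all genes tested. For transcript length it was -0.11 and -0.35. The part of base composition and of the globin share in these ratios was not tested.

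Other splicing genes were counted by functional lists, chosen with earlier results of these data known, and are read against the 28.0% of all genes called higher and 32.6% called lower under TMM. Of 13 U1 and Sm core proteins of the small nuclear ribonucleoproteins, 11 rose and 0 fell under TMM. Their median log2 ratio was 2.66, with Snrpd2 highest at 5.79 (496 TPM in technical replicate 2 and 54.0 TPM in technical replicate 1). Of 12 SR-like activators and SR kinases, 0 rose and 8 fell, with Srpk2 lowest at -2.53, and by DESeq2 size factors 5 were lower. Of 10 U2AF and branch point factors, 5 rose and 4 fell, and of 16 tri-snRNP and catalytic core proteins, 3 rose and 6 fell.

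Among 20 other splicing repressors and regulators, 2 rose and 10 fell, with Mbnl2 lowest at -4.25. Of 15 nonsense-mediated decay factors, 4 rose and 4 fell, with a median of 0.20. These splits also moved with the scaling. All genes tested moved too, with 14.6% higher and 58.5% lower by total counts, and 8.40% higher and 80.8% lower by TPM. By total counts, the higher and lower genes numbered 8 and 0 of the U1 and Sm list, 0 and 10 of the SR-like list, 2 and 5 of the U2AF list, 1 and 10 of the tri-snRNP list and 0 and 17 of the other regulators. By TPM they numbered 5 and 4, 0 and 12, 0 and 7, 0 and 13, and 0 and 20 of the same lists in that order. The decay factors had 2 higher and 8 lower by total counts, with a median of -1.06, and 1 higher and 10 lower by TPM, with a median of -2.23.

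The transcripts were then grouped by annotated class. Of 237 transcripts, 236 were matched to a class in GENCODE M21, with 119 coding, 60 retained-intron, 24 decay and 33 processed transcripts that have no reading frame. All but the coding class are called noncoding here. Above 0 TPM were 89 transcripts in technical replicate 2 and 213 in the deeper technical replicate 1.

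Noncoding transcripts held 40.7% of the members' TPM in technical replicate 2 and 34.4% in technical replicate 1. In all other protein-coding genes they held 19.97% in technical replicate 2 and 13.8% in technical replicate 1. As a share of expected counts, which are not corrected for length, the members' order turned round, with 19.95% in technical replicate 2 and 23.7% in technical replicate 1. On counts the other genes kept theirs, with 14.0% in technical replicate 2 and 9.0% in technical replicate 1. Retained-intron transcripts held 25.7% of the members' TPM in technical replicate 2 and 20.7% in technical replicate 1. Decay transcripts held 11.9% and 3.77%, and processed transcripts held 3.14% and 9.98%.

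The families carried different classes. In the SR protein genes, noncoding transcripts held 63.2% of the TPM in technical replicate 2 and 64.7% in technical replicate 1, and as a share of expected counts 38.03% in technical replicate 2 and 53.3% in technical replicate 1. Of the TPM, decay transcripts held 38.5% in technical replicate 2 and 9.25% in technical replicate 1, and retained-intron transcripts held 16.1% and 45.8%. Srsf2-204 alone had 144 of the 214 TPM of decay transcripts in technical replicate 2. In the hnRNP genes, retained-intron transcripts held 38.0% in technical replicate 2 and 9.90% in technical replicate 1, while processed transcripts held 0.614% and 11.1%. Of the 389 TPM of retained-intron transcripts of hnRNP genes in technical replicate 2, Hnrnpk-217 had 298 TPM and Hnrnpl-210 had 71.8 TPM. Over all SF3 genes, the noncoding share was 1.85% in technical replicate 2 and 25.2% in technical replicate 1. As a share of expected counts it was 0.867% and 15.5%. Of these 9 genes 5 have a noncoding transcript. The Sf3b1 transcript Sf3b1-203 alone had 120 of the 227 TPM of noncoding transcripts in technical replicate 1.

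For single genes, the noncoding share was compared where a gene had a coding and a noncoding transcript and at least 50 counts in each library, which 22 members and 3480 genes in all met. Of the 18 members outside, 15 have no noncoding transcript in the tables, and Sf3b4, Hnrnpll and Hnrnpr had under 50 counts in technical replicate 2. The share was higher in technical replicate 2 by 10 points or more in 6 members, lower by as much in 10, and within that in 6. Over all such genes, 23.6% were higher and 37.1% lower, so the members' split lay near that of other genes.

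The level of the share is set beside that of the other genes. Its median was 3.81% in technical replicate 2 and 46.8% in technical replicate 1 for the members, against 0 and 17.98% for the other protein-coding genes. In technical replicate 2, 7 of 22 members had a share of 50% or more, or 31.8% of them, against 24.6% of the other genes. In technical replicate 1, 10 of 22 did, or 45.5%, against 21.6%. This is a description, with no test over the members. Of the 9 SR protein genes compared, 3 were at 50% or more in technical replicate 2 and 8 were in technical replicate 1.

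**Figure D3:**
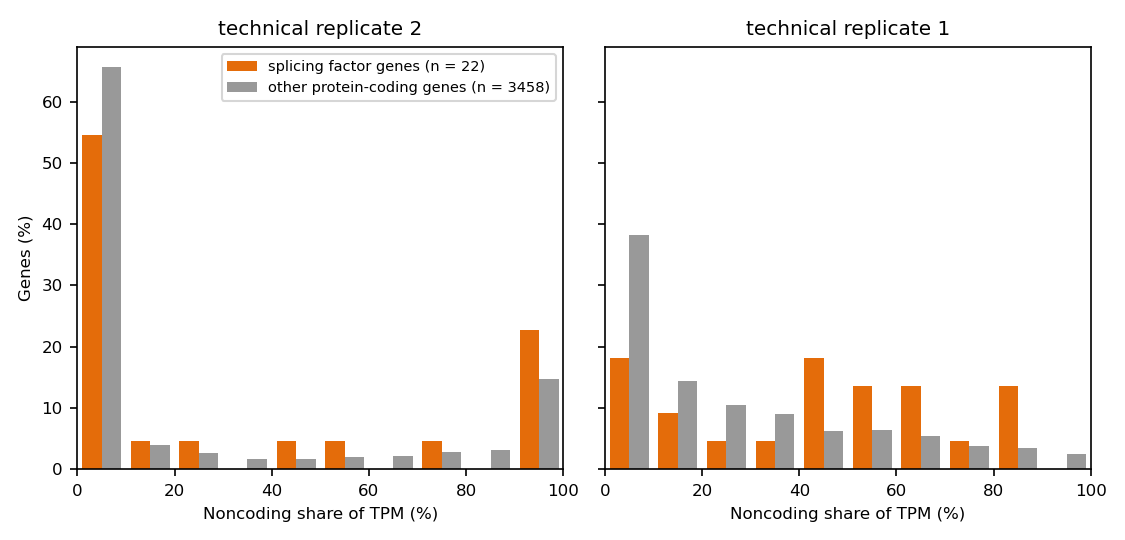
Share of each gene's TPM in noncoding transcripts (horizontal axis, bins of 10 points) as a percentage of genes, for 22 splicing factor genes and 3458 other protein-coding genes, with technical replicate 2 in the left panel and technical replicate 1 in the right. In technical replicate 2 the genes pile up at both ends, with 54.5% of members below 10% and 22.7% at 90% or more, while in technical replicate 1 the members spread between 0 and 90%.

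Hnrnpk showed the largest shift towards noncoding transcripts. Its noncoding share was 92.6% in technical replicate 2 and 41.9% in technical replicate 1, a difference of 50.6 points. As a share of expected counts it was 76.4% (exact binomial interval 74.4 to 78.5) in technical replicate 2 and 22.1% (21.6 to 22.7) in technical replicate 1. In technical replicate 2 nearly all of the noncoding share was Hnrnpk-217, which held 92.4% of the gene's TPM there and 17.8% in technical replicate 1. Hnrnpk-217 is an 874-base transcript that keeps the 78-base intron shown above, and it had 298 TPM from 1292 counts in technical replicate 2 and 188 TPM from 2456 counts in technical replicate 1. The coding Hnrnpk-208 was at 0 in technical replicate 2 and led technical replicate 1 with 310 TPM.

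Hnrnpl followed, with a noncoding share of 96.9% in technical replicate 2 and 48.7% in technical replicate 1. Hnrnpl-210, which keeps the 118-base intron, had 71.8 TPM from 227 counts in technical replicate 2 and 19.0 TPM from 175 counts in technical replicate 1. The coding Hnrnpl-202 had 0 TPM in technical replicate 2 and 148 TPM in technical replicate 1. Of all members compared, these 2 alone had a noncoding leader in technical replicate 2 and a coding one in technical replicate 1, as did 12.2% of all 4255 genes compared for their leading transcript.

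Hnrnph3 had a noncoding share of 94.8% in technical replicate 2 and 59.2% in technical replicate 1, from 55 and 2468 counts. Its leader in technical replicate 2 was Hnrnph3-205 (67.3% of the gene), which keeps the 185-base intron, and its leader in technical replicate 1 was another retained-intron transcript, Hnrnph3-206 (20.98%). The leaders of Hnrnpk, Hnrnpl and Hnrnph3 in technical replicate 2 have 2 or 3 exons and cover 15.7%, 7.5% and 7.7% of the gene's length, all towards its 3′ end. Their 3′ ends lie 808, 22 and 767 bases from the furthest annotated end. Over the 20 members whose leader differed, the leader covered a median of 84.2% of the gene in technical replicate 2 and 73.5% in technical replicate 1, and its 3′ end lay within 100 bases of the furthest end in 12 members in technical replicate 2 and 9 in technical replicate 1.

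**Figure D4:**
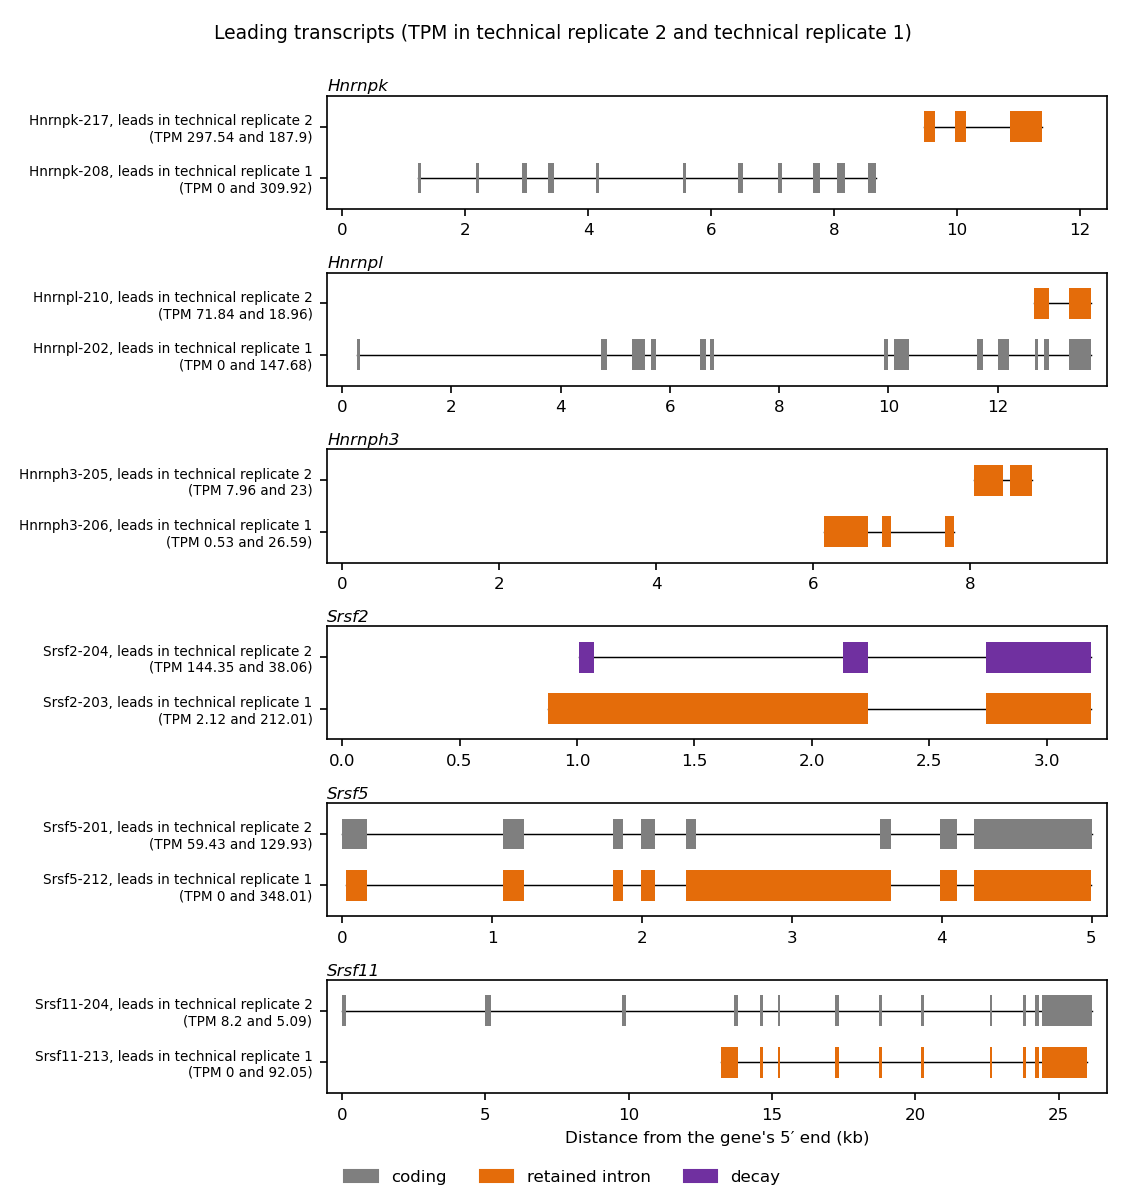
Exons (boxes) of the leading transcript in technical replicate 2 (upper) and technical replicate 1 (lower) of 6 genes, by distance from the gene's 5′ end in kb, coloured by class, with TPM in technical replicate 2 and technical replicate 1 beside each name. In Hnrnpk, Hnrnpl and Hnrnph3 the upper transcript covers 15.7% or less of the gene at its 3′ side, and in Srsf5 and Srsf11 the upper transcript is coding and spans the whole gene.

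Of the SR proteins, Srsf2 and Srsf1 were led by a decay transcript in technical replicate 2 and by a retained-intron transcript in technical replicate 1. Srsf2 had a noncoding share of 93.2% in technical replicate 2 and 61.9% in technical replicate 1. Its decay transcript Srsf2-204, of 620 bases, had 144 TPM from 411 counts in technical replicate 2 and 38.1 TPM from 313 counts in technical replicate 1. Its retained-intron transcript Srsf2-203 had 2.12 TPM in technical replicate 2 and 212 TPM in technical replicate 1. The coding Srsf2-201 held 13.7 TPM in technical replicate 2 and 147 TPM in technical replicate 1.

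Srsf1 had a noncoding share of 73.8% in technical replicate 2 and 57.4% in technical replicate 1. The decay transcript Srsf1-204 held the whole of that in technical replicate 2, with 26.9 TPM, and had 96.9 TPM in technical replicate 1. The retained-intron Srsf1-203 was at 0 in technical replicate 2 and at 180 TPM in technical replicate 1. In expected counts the share was 29.1% (24.8 to 33.8) in technical replicate 2 and 18.3% (17.7 to 18.9) in technical replicate 1. Srsf1-204 has 896 bases and the coding Srsf1-205, which held the other 292 counts in technical replicate 2, has 5362.

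Srsf3 was the one SR protein gene whose noncoding share was close in the libraries, at 92.7% in technical replicate 2 and 86.3% in technical replicate 1. Its retained-intron transcript Srsf3-205 led in both, with 65.3% and 50.6% of the gene. The deposited Srsf3-205 has 910 bases and the M21 model 2110, so its class is that of the later model. The decay transcript Srsf3-201, whose extra exon is shown above, held 27.2% in technical replicate 2 and 20.6% in technical replicate 1. Coding transcripts of Srsf3 thus had 8.65 TPM in technical replicate 2 and 59.8 TPM in technical replicate 1.

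In 6 SR protein genes the noncoding share was lower in technical replicate 2. Srsf11 had a noncoding share of 0 of 143 counts in technical replicate 2, which allows up to 2.55% by the exact interval. In technical replicate 1 it was 78.2% of counts (77.5 to 78.9). Of the TPM of Srsf11, the share was 0 in technical replicate 2 and 84.9% in technical replicate 1. The coding Srsf11-204 was its one transcript in technical replicate 2, at 8.20 TPM, and had 5.09 TPM in technical replicate 1. Its retained-intron transcripts Srsf11-213 and Srsf11-207 were at 0 in technical replicate 2 and had 92.1 and 88.1 TPM in technical replicate 1.

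Srsf5 had a noncoding share of 1.57% in technical replicate 2 and 72.9% in technical replicate 1. The coding Srsf5-201 held 59.4 TPM in technical replicate 2 and 130 TPM in technical replicate 1, while the retained-intron Srsf5-212 was at 0 in technical replicate 2 and at 348 TPM from 16846 counts in technical replicate 1. Srsf9 and Srsf4 had no noncoding TPM in technical replicate 2 and shares of 65.8% and 57.0% in technical replicate 1. Their coding transcripts alone were close on the TPM scale, at 28.8 and 11.4 TPM in technical replicate 2 and 30.8 and 14.7 TPM in technical replicate 1.

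Srsf6 had a share of 44.1% in technical replicate 2 and 61.3% in technical replicate 1, with the coding Srsf6-203 leading technical replicate 2 and the retained-intron Srsf6-204 leading technical replicate 1. Srsf10 had a share of 1.75% in technical replicate 2 and 24.4% in technical replicate 1, or 0.346% and 7.77% of its counts, which is under 10 points.

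Among the other genes, Hnrnph1 fell furthest in noncoding share, with 2.13% in technical replicate 2 and 80.9% in technical replicate 1. The processed transcript Hnrnph1-212 was at 0 in technical replicate 2 and at 310 TPM in technical replicate 1, and the coding Hnrnph1-202 had 37.7 TPM in technical replicate 2 and 22.9 TPM in technical replicate 1. Hnrnpu, a nuclear scaffold protein, had a share of 0 in technical replicate 2 and 44.6% in technical replicate 1, but on counts 0 and 6.13%, which is under 10 points. Sf3a1 likewise had 0 in technical replicate 2 and 13.1% in technical replicate 1, and on counts 0 and 2.28%. Sf3b1 had 5.48% in technical replicate 2 and 44.8% in technical replicate 1, and its retained-intron transcript Sf3b1-203 had 0.11 TPM in technical replicate 2 and 120 TPM in technical replicate 1.

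**Figure D5:**
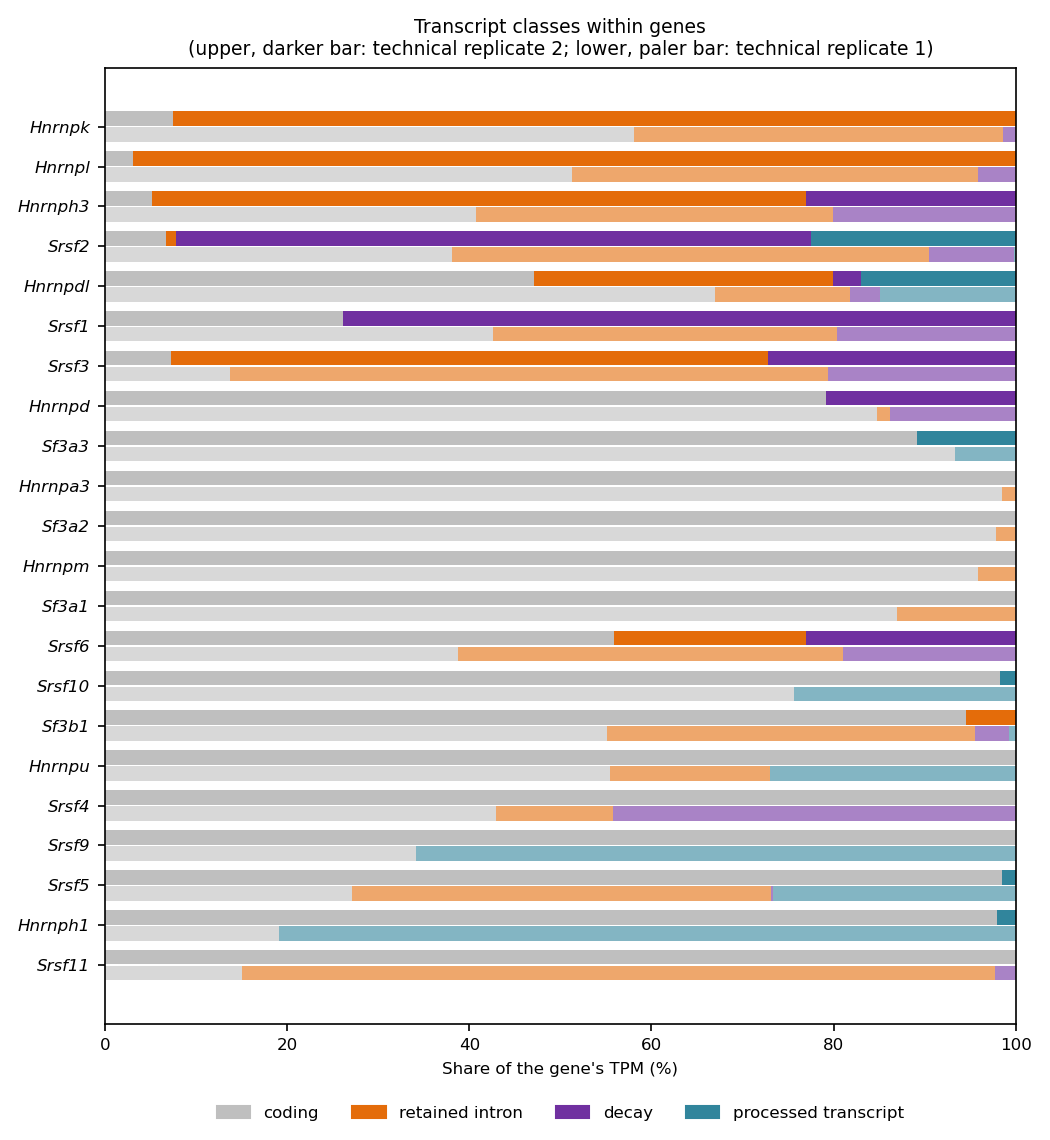
Share of each gene's TPM in coding, retained-intron, decay and processed transcripts for the 22 members compared, with technical replicate 2 as the upper, darker bar and technical replicate 1 as the lower, paler bar, ordered by the difference in noncoding share. The difference runs from 50.6 points for Hnrnpk at the top to -84.9 points for Srsf11 at the bottom.

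The leading transcript, that with the highest TPM, was compared in 29 members with at least 2 transcripts and 50 counts in each library. It differed between the libraries in 20 of them, or 69.0%, against 41.7% of all 4255 genes. The 40 members have 237 transcripts and the other 21434 protein-coding genes have 77867. The part of transcript number in this contrast was not tested. Some leaders were also poorly separated in technical replicate 2. There the deposited bounds were 0.015 to 25.7 TPM for Hnrnpc-202 and 2.87 to 29.1 TPM for Hnrnpc-201. In 5 members the leader was coding in technical replicate 2 and noncoding in technical replicate 1, as in 6.44% of all genes. These were Srsf5, Srsf6, Srsf9, Srsf11 and Hnrnph1. In 10 members both leaders were coding and in 3, Srsf1, Srsf2 and Hnrnph3, both were noncoding. Over all 4255 genes, differing leaders were both coding in 822 and both noncoding in 156.

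Where both leaders were coding, the leader of technical replicate 1 was often at or near 0 in technical replicate 2. Hnrnpf-210, a single-exon model, held 84.5 TPM in technical replicate 2 and 119 TPM in technical replicate 1, while Hnrnpf-201 was at 0 in technical replicate 2 and at 329 TPM in technical replicate 1. Hnrnpm-204, of 634 bases, had 124 TPM in technical replicate 2 and 32.3 TPM in technical replicate 1, and Hnrnpm-201 had 11.4 TPM in technical replicate 2 and 124 TPM in technical replicate 1. Sf3a2-203 had 41.1 TPM in technical replicate 2 and 2.93 TPM in technical replicate 1, while the 781-base Sf3a2-204 was at 0 in technical replicate 2 and at 14.2 TPM in technical replicate 1.

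The leader also held more of its gene at the lower depth. Its median share was 90.9% in technical replicate 2 and 50.6% in technical replicate 1 for the members, and 98.4% and 68.6% for the other genes. In 9 of the 29 members a single transcript held all of the gene's TPM in technical replicate 2, or 31.0% of them against 45.4% of the other genes. In technical replicate 1 this held for 0 of 29 members and 5.11% of the other genes. The part of depth in these isoform differences was not tested. Each library's isoform values are estimates that divide shared reads, and the overlap of transcripts within a gene limits them more than the counting intervals show.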

How the data were processed

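The authors deposited a gene table and a transcript table per library, with the expected count (estimated reads, not whole numbers) and TPM of each feature. Per the file headers, the transcript tables also give each transcript's percent of its gene, deposited lengths (other), a posterior mean TPM, and lower and upper bounds on TPM, used as scores because the level of these deposited bounds is not given. The assembly is mm10 per the labels, and the aligner, quantifier and their versions are not given in the sources used here. Symbols and transcript classes were joined by Ensembl ID, without version, to GENCODE M21 (GRCm38), a later release than that of the deposited IDs. It matched 42462 of 43346 genes. Some deposited transcript lengths differ from M21, as for Srsf11-207, with 813 bases deposited and 1670 in M21.

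Expected counts were rounded and scaled with TMM (edgeR 4.0.16, R 4.3.3) over 12467 genes with a mean of at least 1 TPM and at least 50 counts over both libraries. Ratios are technical replicate 2 over technical replicate 1, with exact Clopper-Pearson intervals at 95% given the gene's total (scipy 1.17.1). No count model was fitted, because each side has 1 library. The code was tested on simulated data. Alternatives were DESeq2 1.42.0 size factors, total counts, TPM with pseudocounts of 1 and 0.1, other folds, interval levels, minimum counts and class definitions, and 4 added after seeing the data: shares and leaders by posterior mean TPM, TPM without the globin genes, and leaving out members that overlap another gene. Members and lists were chosen with earlier results of these data known. Values are given for the 6 members of highest mean TPM, the 4 highest and 4 lowest ratios, all members whose leading transcript changes between coding and noncoding, the 6 largest share differences in either direction, and members missing from a library; the other members are named by the same symbol rule, and of other lists the highest or lowest gene. Transcripts are named from 20% of their gene in either library. A further erythroid marker is not reported here.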

Additional observations from a re-analysis of the deposited data

How the results depend on the processing

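Under DESeq2 size factors, all 39 gene ratios kept their side of the limits and the counts stayed at 8 higher and 17 lower. Higher and lower members numbered 3 and 31 by total counts, 2 and 35 by TPM with a pseudocount of 1, and 3 and 33 by TPM rescaled without the globin genes (added after seeing the data). After that rescaling the median log2 ratio was -2.32 for the members and -1.63 for all genes tested. At a 2-fold limit 5 were higher and 12 lower. Without the 17 members that overlap another gene, 5 were higher and 11 lower, as fewer genes were counted. Shares over all genes were not counted for the rescaled TPM, the 2-fold limit or genes without overlaps, so these are counts of members alone. The cause of the scaling differences was not tested.

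Some ratios that were positive under TMM were negative under other scalings. By total counts, TPM with a pseudocount of 1 and TPM with a pseudocount of 0.1, the log2 ratio was -0.20, -1.46 and -1.53 for Sf3a1, -0.20, -1.35 and -1.38 for Sf3b2, -1.19, -1.87 and -1.88 for Srsf3, and -0.024, -1.51 and -1.58 for Srsf4. It was -0.88, -2.11 and -2.13 for Hnrnpab, -1.20, -2.35 and -2.38 for Hnrnpc, and -0.88, -1.71 and -1.71 for Hnrnpk. By TPM with pseudocounts of 1 and 0.1 it was -0.60 and -0.61 for Sf3a3 and -1.61 and -1.64 for Srsf9. Hnrnpm had -0.86 by total counts and -0.55 by TPM with either pseudocount.

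The noncoding share was higher in 4 to 7 members and lower in 7 to 12 under all alternatives run. The leading transcript differed in 8 of 15 members when it had to hold 50% in both libraries, and in 17 to 22 under the other alternatives. Shares over all genes were taken at the main settings only. Whether the members still differ from other genes under these alternatives was not tested. With 1 library a side, no library could be left out. No paired analysis was possible because each group holds 1 library. At its depth, technical replicate 2 gave 20 to 55 counts for Sf3b4, Hnrnpll, Hnrnpr and Hnrnph3, which limits their ratios and isoforms most.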
